A study of Mus musculus with 10 samples.

Results

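Neuronal activity induces, besides transcription factors, a set of effector genes whose products act at the synapse. The 7 described here are Arc, Bdnf, Inhba, Nptx1, Nptx2, Homer1 and Rheb. They were chosen by name, each was read by the brightest probe set that carries its symbol alone, and all 7 were found among the 22180 genes measured. RNA came from cultured mouse cortical neurons of wildtype or ATF4-deficient embryos, dissected between embryonic days 14.5 and 15.5, and was hybridised to 10 Affymetrix whole-transcript arrays. ATF4 is the transcription factor whose translation rises when cells under stress slow protein synthesis. On day 7 in vitro the cultures received 5 µM sodium arsenite, an oxidative stressor that reacts with thiol groups of proteins, or vehicle, and RNA was taken 12 hours later. The 4 groups were wildtype neurons with vehicle (2 arrays), wildtype neurons with arsenite (4 arrays), ATF4-deficient neurons with vehicle (2 arrays) and ATF4-deficient neurons with arsenite (2 arrays). The labels give no allele for the deficiency and no strain, and they do not say whether replicates were separate embryos or cultures, so the p-values reflect no more than how these samples vary.

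When synaptic input raises calcium in a neuron, calcium-dependent kinases and phosphatases act on transcription factors such as CREB, SRF and MEF2, which switch on immediate early genes. Some of these encode further transcription factors and others encode proteins that change the synapse directly. Of the latter, Bdnf encodes the neurotrophin that acts through the receptor TrkB, and Inhba encodes the subunit of the secreted signalling protein activin A. Nptx1 and Nptx2 encode secreted pentraxins that gather AMPA-type glutamate receptors. Arc encodes a protein that promotes endocytosis of AMPA receptors, Homer1 a scaffold of the postsynaptic density that binds metabotropic glutamate receptors, and Rheb the small GTPase that activates the growth kinase complex mTORC1.

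The values are on the log2 scale of the robust multiarray average (RMA), so a difference of 1 is a doubling, and levels of different genes are not comparable. Genes of olfactory and vomeronasal receptors, which cortical neurons hardly express, served as a dim reference: 90% of the 1394 were under 6.63. The group means of all 7 genes lay above that level. Every count of called genes uses an adjusted p of 0.05 in limma. Atf4 was at 9.32 ± 0.34 (SD, n = 2) and 9.69 ± 0.21 (SD, n = 4) in wildtype vehicle and arsenite arrays, against 7.57 ± 0.12 and 7.62 ± 0.11 (SD, n = 2 each) in ATF4-deficient arrays. On the first principal component the second ATF4-deficient arsenite array was at 29.4, and the other arrays were at -18.2 to 8.70. The 8 neuron markers all lay above the dim reference, and their mean was 10.5 to 10.7 on every array. The mean of 12 measured astrocyte markers was 7.99 to 8.24 in wildtype vehicle, 7.45 to 7.97 in wildtype arsenite, 7.15 to 7.44 in ATF4-deficient vehicle and 7.04 to 7.34 in ATF4-deficient arsenite arrays, and 10 of the 12 lay above the dim reference in at least 1 group (not Gjb6 or S100b). The 7 oligodendrocyte lineage markers, all above it, averaged 7.71 to 7.90, 7.41 to 7.65, 7.37 to 7.42 and 7.07 to 7.29 in the same order. Progenitor markers (6 of 6 above it) averaged 7.66 to 7.92 and 7.60 to 7.88 in wildtype and 7.43 to 7.53 and 7.41 to 7.46 in ATF4-deficient arrays. Of 6 microglia markers, Cx3cr1, Aif1 and Tmem119 lay above the dim reference in every group, with Cx3cr1 at group means of 7.64 to 7.85, while Csf1r, Itgam and P2ry12 did not in any. Of 5 endothelial markers, Pecam1 lay above it in every group and Cdh5 in the ATF4-deficient groups, while Cldn5, Flt1 and Tek did not in any. Of 6 pericyte and fibroblast markers 5 passed it in at least 1 group. The 8 inhibitory neuron markers averaged 9.35 to 9.59 and 9.24 to 9.52 with vehicle and arsenite in wildtype, and 9.06 to 9.42 and 8.80 to 9.28 in ATF4-deficient neurons. The 7 excitatory neuron markers averaged 9.32 to 9.39, 9.11 to 9.31, 9.35 to 9.42 and 9.37 to 9.43 in that order. In bulk RNA, fewer cells of a type and less RNA per cell cannot be told apart.

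Called differences were found in Inhba and Bdnf. Inhba was lower after arsenite in each genotype, and Bdnf was higher in ATF4-deficient vehicle neurons than in wildtype vehicle neurons and fell with arsenite in ATF4-deficient neurons. No call was made for Arc, Homer1, Nptx1, Nptx2 or Rheb in any comparison.

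Counted over the 7 genes, arsenite in wildtype neurons lowered 1 and raised 0, where 0.252% of all genes were called lower and 0.482% in either direction. The groups of 1 of the 7 did not overlap, against 20.6% of all genes. The median difference of the 7 was -0.14 log2, against -0.02 over all genes. In ATF4-deficient neurons arsenite lowered 2 and raised 0, where 0.523% of all genes were called lower and 1.15% in either direction, and the median was -0.18 against -0.01. In that comparison 5 of the 7 did not overlap between groups, as did 38.8% of all genes. Between genotypes under vehicle 1 of the 7 was higher and 0 lower (0.18% of all genes were called higher), with a median of 0.13 against 0.00375. There 4 of the 7 did not overlap, against 42.5% of all genes. Under arsenite 0 of the 7 were called between genotypes by limma, against 0.343% of all genes in either direction, 0.0721% higher and 0.271% lower. The genotypes did not overlap in 1 of the 7 and in 18.5% of all genes, and 2 of the 7 had an unadjusted p under 0.05, as did 12.1% of all genes. For the interaction limma called 0 genes in all (0%), with 1330 genes, and Bdnf alone of the 7, at an unadjusted p under 0.05.

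Upstream sequence of the called genes is shown here, with that of Homer1 beside it as a gene not called. RefSeq windows of GRCm38.p6, from 250 bases before to 50 bases after a listed start, were found for 4 of the 7 genes, namely Bdnf, Homer1, Inhba and Rheb, with 7, 2, 1 and 1 windows. Arc, Nptx1 and Nptx2 had no entry. The windows were searched on both strands for the cyclic AMP response element TGACGTCA, its short form TGACG, the AP-1 site TGANTCA, the amino acid response element TGATGNAAN that ATF4 and C/EBP factors bind, the antioxidant response element TGACNNNGC and the CArG box of SRF. The short form lies inside the full cyclic AMP element and can overlap the antioxidant element. The third of the Bdnf starts, the Inhba start and the first Homer1 start are printed 5′ to 3′ with matches in capitals, from chr2:109692186-109692485, chr13:16011601-16011900 and chr13:93303507-93303806, all on the plus strand.
Bdnf start 3: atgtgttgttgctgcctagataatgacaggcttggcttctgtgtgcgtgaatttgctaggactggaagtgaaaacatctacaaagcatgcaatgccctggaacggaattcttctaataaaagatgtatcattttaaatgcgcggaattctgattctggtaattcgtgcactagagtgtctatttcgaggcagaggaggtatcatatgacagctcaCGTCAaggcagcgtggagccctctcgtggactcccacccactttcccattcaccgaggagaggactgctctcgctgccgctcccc
Inhba start 1: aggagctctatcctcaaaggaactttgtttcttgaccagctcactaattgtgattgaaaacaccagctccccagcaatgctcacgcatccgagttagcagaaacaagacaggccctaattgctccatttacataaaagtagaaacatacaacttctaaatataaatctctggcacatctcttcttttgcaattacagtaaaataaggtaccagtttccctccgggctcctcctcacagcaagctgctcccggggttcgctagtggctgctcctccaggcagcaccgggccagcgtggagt
Homer1 start 1: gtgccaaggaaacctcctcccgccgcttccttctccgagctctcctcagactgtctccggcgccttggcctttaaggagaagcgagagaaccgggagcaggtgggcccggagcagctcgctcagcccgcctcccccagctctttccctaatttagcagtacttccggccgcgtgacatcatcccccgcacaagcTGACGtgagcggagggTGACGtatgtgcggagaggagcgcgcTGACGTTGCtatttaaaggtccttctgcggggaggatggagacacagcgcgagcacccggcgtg

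The Bdnf window holds 1 short cyclic AMP element, as CGTCA, with its first base at -35 from the start. In the Homer1 window the short element occurs at -56, -40 and -14, and the last of these overlaps an antioxidant element. The Inhba window holds none of the 6 motifs. Of the other Bdnf windows, the second holds an AP-1 site at -152 and the seventh an amino acid response element at 8, downstream of the start. Rheb holds 1 short cyclic AMP element and 2 antioxidant elements. Among all 32851 windows of the table, 20.8% hold the short cyclic AMP element, 1.79% the full one, 7.81% an AP-1 site, 3.95% an amino acid response element, 12.4% an antioxidant element and 1.63% a CArG box. The array gave 1 value per gene here, so the 7 Bdnf starts, and the short and long Homer1 transcripts of which the short one is the activity-induced form, were not told apart.

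The Inhba values were 7.83 and 7.70 in the wildtype vehicle arrays and 7.17, 6.96, 6.98 and 7.24 in the wildtype arsenite arrays. Every arsenite array lay below both vehicle arrays. In ATF4-deficient neurons it was at 7.64 and 7.27 with vehicle and at 6.72 and 6.66 with arsenite, so these groups did not overlap either, and the ATF4-deficient arsenite arrays were the lowest of the 10. The group means were 7.77 ± 0.09 (SD, n = 2), 7.09 ± 0.14 (SD, n = 4), 7.45 ± 0.26 (SD, n = 2) and 6.69 ± 0.04 (SD, n = 2) in the order given. The last lay 0.06 above the dim reference, where background limits how far a fall can be seen.

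In wildtype neurons arsenite lowered Inhba 1.60-fold (-0.67 log2, SE 0.12, 95% confidence interval -0.94 to -0.41, adjusted p = 0.0396), the 56th steepest fall of 22180 genes. In ATF4-deficient neurons the fall was 1.70-fold (-0.76 log2, SE 0.14, interval -1.07 to -0.46, adjusted p = 0.0294), the 88th steepest. The responses of the genotypes differed by -0.09 log2 (interval -0.49 to 0.31, adjusted p = 0.958). The difference of ATF4-deficient from wildtype neurons was -0.31 log2 under vehicle (interval -0.61 to -0.01, adjusted p = 0.447) and -0.40 under arsenite (interval -0.66 to -0.14, adjusted p = 0.231). In neither case did the genotypes overlap on any array, and neither was called. Of all genes 42.5% did not overlap between genotypes under vehicle and 18.5% under arsenite. The means of the astrocyte, oligodendrocyte lineage, inhibitory neuron and progenitor markers were lower in the same directions in all 4 comparisons. For the astrocyte markers they were 8.12 with vehicle and 7.68 with arsenite in wildtype, and 7.30 and 7.19 in ATF4-deficient neurons. For the oligodendrocyte lineage markers they were 7.81, 7.53, 7.39 and 7.18 in that order. Those of the inhibitory neuron markers were 9.47, 9.39, 9.24 and 9.04, and those of the progenitor markers 7.79, 7.74, 7.48 and 7.43. The progenitor arrays overlapped between treatments in each genotype. The remaining marker means did not all go this way. With arsenite the pericyte and fibroblast mean rose in wildtype (6.96 to 7.10). In ATF4-deficient neurons the neuron (10.59 to 10.61) and excitatory neuron means (9.39 to 9.40) rose with arsenite. Under vehicle the microglia (6.93 against 6.85) and endothelial means (6.36 against 6.27) were higher in ATF4-deficient neurons. The part of any marker set in the Inhba values was not tested.

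The Inhba calls rested on few arrays. In wildtype the call ended without vehicle replicate 1 (adjusted p = 0.347) or 2 (0.172), without arsenite replicate 1 (0.0671), 2 (0.11) or 3 (0.11), and without either ATF4-deficient arsenite array (0.0594), while the difference stayed between -0.74 and -0.61. In ATF4-deficient neurons it ended without vehicle replicate 1 (adjusted p = 0.194), without arsenite replicate 1 (0.0844) or 2 (0.162) and without either wildtype vehicle array (0.0517), with a difference between -0.95 and -0.58. Fitted on the compared groups alone, the wildtype and ATF4-deficient falls had adjusted p of 0.0642 and 0.278. The wildtype call also ended with the replicate number as a block (-0.70, adjusted p = 0.0662), and the ATF4-deficient call with array weights (-0.76, adjusted p = 0.0521).

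Bdnf was at 7.51 and 7.52 in the ATF4-deficient vehicle arrays. Its values were 6.96 and 6.88 with vehicle in wildtype neurons, 6.81, 6.89, 6.96 and 6.83 in wildtype arsenite, and 6.96 and 6.90 in ATF4-deficient arsenite arrays. The ATF4-deficient vehicle pair thus stood above the other 8 arrays, whose 3 groups overlapped. The group means were 7.51 ± 0.01 (SD, n = 2), 6.92 ± 0.05 (SD, n = 2), 6.87 ± 0.06 (SD, n = 4) and 6.93 ± 0.04 (SD, n = 2) in the order given. The last 3 lay 0.24 to 0.30 above the dim reference. Background there limits how far a fall can be seen, which bears on the arsenite response in wildtype and on the comparison of responses between genotypes.

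Under vehicle Bdnf was 1.51-fold higher in ATF4-deficient than in wildtype neurons (0.60 log2, SE 0.09, interval 0.39 to 0.80, adjusted p = 0.025), the 138th largest difference upward. Arsenite lowered it 1.5-fold in ATF4-deficient neurons (-0.58 log2, SE 0.09, interval -0.79 to -0.38, adjusted p = 0.0167), the 191st steepest fall. These comparisons share the ATF4-deficient vehicle arrays. In wildtype neurons the arsenite difference was -0.04 log2 (interval -0.22 to 0.13, adjusted p = 0.906), and under arsenite the genotypes differed by 0.06 (interval -0.12 to 0.23, adjusted p = 0.819). The difference between the arsenite responses of the genotypes was -0.54 log2 (SE 0.12, interval -0.81 to -0.27). Its unadjusted p was 0.000992 and its adjusted p 0.687, so Bdnf was not called for a genotype-dependent response. The astrocyte, oligodendrocyte lineage, inhibitory neuron and progenitor marker means were lower in ATF4-deficient vehicle than in wildtype vehicle arrays, opposite to Bdnf. They were also lower after arsenite in ATF4-deficient neurons, as Bdnf was. Under vehicle the excitatory neuron (9.39 against 9.36), microglia (6.93 against 6.85) and endothelial marker means (6.36 against 6.27) were higher in ATF4-deficient arrays. Those of neuron (10.59 against 10.65) and pericyte and fibroblast markers (6.94 against 6.96) were lower. The part of any marker set in either Bdnf difference was not tested.

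For Bdnf under vehicle, leaving out an array ended the call where it was wildtype vehicle replicate 1 (adjusted p = 0.109) or 2 (0.224), or ATF4-deficient vehicle replicate 1 (0.0775) or 2 (0.246), with a difference between 0.56 and 0.63. The fall with arsenite in ATF4-deficient neurons lost its call without ATF4-deficient vehicle replicate 1 (0.0874) or 2 (0.11) and without ATF4-deficient arsenite replicate 1 (0.0514) or 2 (0.109), with a difference between -0.61 and -0.56. With the compared groups alone the adjusted p was 0.212 and 0.255. Most groups hold 2 arrays, so the calls draw on the spread of all 10.

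**Figure D1:**
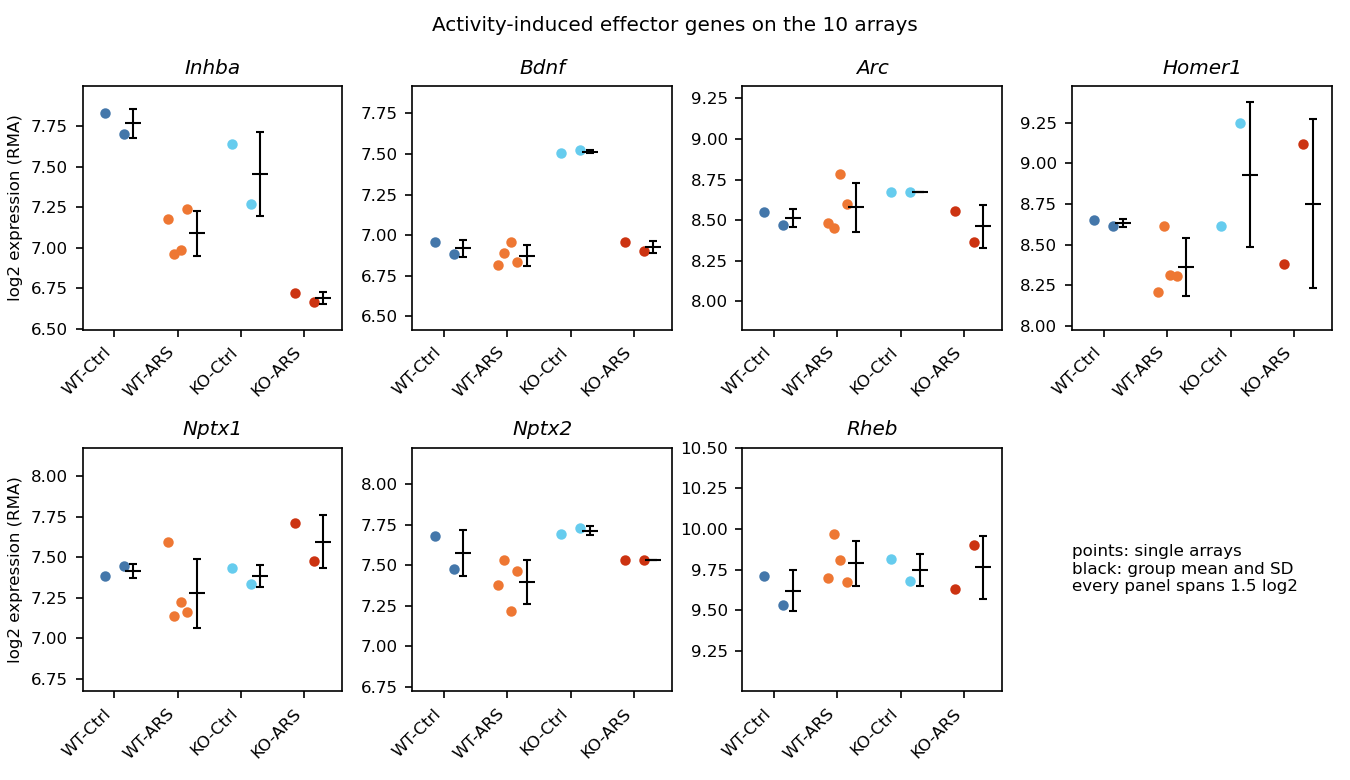
Log2 expression (RMA) of each gene on every array, with 1 point per array, the mean and SD of each group in black, and a range of 1.5 log2 in every panel. Inhba is lower in both arsenite groups (WT-ARS and KO-ARS), and Bdnf is at 7.51 and 7.52 in the ATF4-deficient vehicle arrays (KO-Ctrl) against 6.81 to 6.96 elsewhere.

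The neuronal pentraxins showed no called difference. In wildtype neurons Nptx1 was at 7.38 and 7.45 with vehicle and at 7.59, 7.14, 7.22 and 7.16 with arsenite, where replicate 1 was the highest. In ATF4-deficient neurons it was at 7.43 and 7.34 with vehicle and at 7.71 and 7.48 with arsenite, without overlap. The arsenite difference was -0.14 log2 in wildtype (interval -0.42 to 0.15, adjusted p = 0.782) and 0.21 in ATF4-deficient neurons (interval -0.12 to 0.54, adjusted p = 0.637). Their difference was 0.35 (interval -0.09 to 0.78, adjusted p = 0.853). Under arsenite Nptx1 was 0.32 higher in ATF4-deficient neurons (interval 0.03 to 0.60), with an unadjusted p of 0.0322 and an adjusted p of 0.36.

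In wildtype neurons Nptx2 was at 7.68 and 7.48 with vehicle and at 7.38, 7.53, 7.22 and 7.47 with arsenite, and these groups overlapped. It was at 7.69 and 7.73 in ATF4-deficient vehicle arrays and at 7.53 in both ATF4-deficient arsenite arrays. The arsenite difference was -0.18 log2 in each genotype, with intervals of -0.41 to 0.04 in wildtype (adjusted p = 0.574) and -0.44 to 0.08 in ATF4-deficient neurons (adjusted p = 0.607). The responses differed by 0.00020 log2, with an interval of -0.34 to 0.34 that allows a difference of that size in either direction. The value 7.53227 occurred on 3 arrays, so the SD of 0 in ATF4-deficient arsenite arrays understates their error. Such repeats were common in the deposited values (30.4% of probe sets).

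The Arc values were 8.55 and 8.47 in wildtype vehicle, 8.48, 8.45, 8.78 and 8.60 in wildtype arsenite, 8.67 on both ATF4-deficient vehicle arrays, and 8.56 and 8.37 in ATF4-deficient arsenite arrays. The wildtype groups overlapped, and the ATF4-deficient groups did not. The arsenite difference was 0.07 log2 in wildtype (interval -0.17 to 0.30, adjusted p = 0.89) and -0.21 in ATF4-deficient neurons (interval -0.48 to 0.06, adjusted p = 0.554). Under vehicle ATF4-deficient neurons had 0.16 more (interval -0.11 to 0.43, adjusted p = 0.712). The differences that involve ATF4-deficient vehicle neurons have the signs of those of Bdnf at a smaller size, and their intervals include 0. The same signs were found for Nptx2 (0.13 under vehicle and -0.18 after arsenite) and Homer1 (0.30 and -0.18), also with intervals that include 0. The Homer1 difference under vehicle had an interval of -0.23 to 0.83 (adjusted p = 0.731). Without ATF4-deficient vehicle replicate 2 it was -0.02. The vehicle and arsenite comparisons share the ATF4-deficient vehicle arrays.

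Homer1 varied widely between the replicates of ATF4-deficient neurons. In wildtype neurons it was at 8.65 and 8.62 with vehicle and at 8.21, 8.62, 8.31 and 8.31 with arsenite. In ATF4-deficient neurons replicate 2 was high under both treatments, at 9.25 against 8.62 with vehicle and at 9.12 against 8.38 with arsenite. The group SD was 0.45 and 0.52 there, against 0.03 and 0.18 in wildtype. The arsenite difference was -0.27 log2 in wildtype (interval -0.73 to 0.19, adjusted p = 0.717) and -0.18 in ATF4-deficient neurons (interval -0.71 to 0.35, adjusted p = 0.836). The latter was between -0.55 and 0.19 when single arrays were left out, and it turned positive without ATF4-deficient vehicle replicate 2 (0.14) and without ATF4-deficient arsenite replicate 1 (0.19). ATF4-deficient neurons had 0.39 more Homer1 under arsenite (adjusted p = 0.493), and 0.02 more without ATF4-deficient arsenite replicate 2.

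Rheb had the narrowest span of group means, 0.17 log2. In wildtype neurons it was at 9.71 and 9.53 with vehicle and at 9.70, 9.97, 9.81 and 9.67 with arsenite. In ATF4-deficient neurons it was at 9.82 and 9.68 with vehicle and at 9.63 and 9.90 with arsenite. All groups overlapped. Arsenite differences were 0.17 (interval -0.09 to 0.42, adjusted p = 0.672) in wildtype and 0.01 (interval -0.28 to 0.31, adjusted p = 0.984) in ATF4-deficient neurons.

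**Figure D2:**
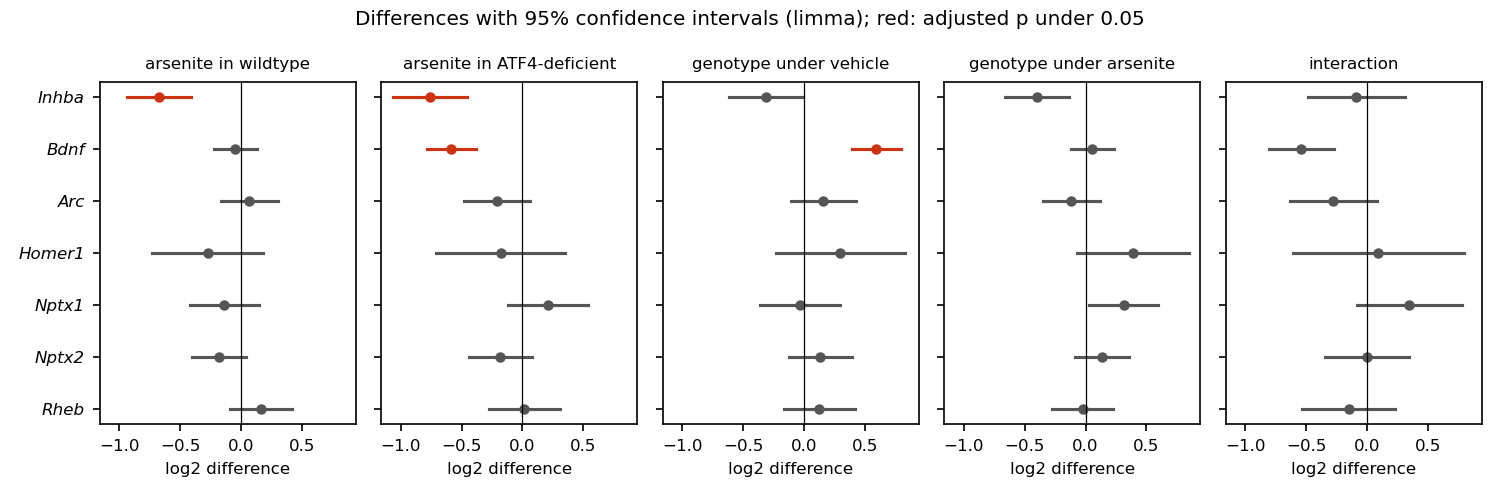
Log2 differences of the 7 genes in the 5 comparisons, with 95% confidence intervals from limma over all 10 arrays and calls in red. The 4 red intervals are Inhba after arsenite in each genotype, Bdnf after arsenite in ATF4-deficient neurons and Bdnf between genotypes under vehicle.

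Other genes that activity induces gave context from lists of related genes. Of 15 activity-induced transcription factors, arsenite lowered 6 and raised 0 in ATF4-deficient neurons, where 0.523% of all genes were called lower, led by Nr4a3 (-2.13 log2, adjusted p = 0.00288) and Npas4 (-1.77, adjusted p = 0.00198). In wildtype neurons, where 0.252% of all genes were called lower, 1 of the 15 fell, Egr3 (-0.80, adjusted p = 0.0286), a call that ended when wildtype vehicle replicate 1 was left out (adjusted p = 0.298) or 2 (0.088), or wildtype arsenite replicate 2 (0.0776) or 3 (0.0802), and with the compared groups alone (0.0658). The median of the 15 was -0.50 in ATF4-deficient and -0.26 in wildtype neurons. Of 16 other effectors, such as secreted peptides, their processing enzymes and kinases, 4 fell in ATF4-deficient and 0 in wildtype neurons, with medians of -0.28 and -0.05. The neuropeptide precursor Adcyap1 was the steepest (-1.71, adjusted p = 0.00136). Pcsk1, also among the 4, was at 6.61 in wildtype vehicle, under the dim reference, where background limits how far a fall can be seen. For the interaction 0 genes were called, so none of the listed genes was called for a genotype-dependent response. The calls of Nr4a3, Npas4 and Adcyap1 in ATF4-deficient neurons held when any single array was left out and were lost with the compared groups alone (adjusted p = 0.217, 0.21 and 0.21). Of the other called transcription factors and effectors, Fos lost its call without ATF4-deficient vehicle replicate 1 (0.0614), Fosl2 without either ATF4-deficient vehicle array (0.0819 and 0.112) or arsenite replicate 2 (0.119), and Pcsk1 without vehicle replicate 2 (0.0999) or arsenite replicate 1 (0.0795) of ATF4-deficient neurons. Per1 lost its call without either wildtype vehicle array (0.0641), wildtype arsenite replicate 4 (0.0541), either ATF4-deficient vehicle array (0.198 and 0.149) or ATF4-deficient arsenite replicate 2 (0.219), and with array weights (0.052). Rgs2 (-0.80) lost its call without any 1 of the vehicle arrays (0.0538 to 0.184) or of the ATF4-deficient arsenite arrays (0.113 and 0.154), with equal array medians (0.0525) and with array weights (0.058). With the mean of all its probe sets Rgs2 was at -0.29 (adjusted p = 0.621). With the compared groups alone these 5 calls and those of Nr4a1 and Nr4a2 were lost too (0.21 to 0.28).

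Under vehicle 4 of the 15 transcription factors and 4 of the 16 effectors were higher in ATF4-deficient neurons and 0 were lower, against 0.18% and 0.252% of all genes, with medians of 0.29 and 0.27. The 8 were Fos, Npas4, Nr4a1, Nr4a2, the prohormone convertase gene Pcsk1, the granin genes Scg2 and Vgf, and Adcyap1, at 0.90 to 1.68 log2, above the 0.60 of Bdnf. This comparison and that of arsenite in ATF4-deficient neurons share the ATF4-deficient vehicle arrays, so their list counts are not separate evidence. All 8 calls ended with wildtype vehicle replicate 2 left out (adjusted p of 0.113 to 0.252) and without ATF4-deficient vehicle replicate 2 (0.121 to 0.289). Those of Fos, Npas4, Nr4a2 and Vgf were also lost without replicate 1 of wildtype vehicle (0.0615 to 0.131) or of ATF4-deficient vehicle (0.0647 to 0.116), and all 8 with the compared groups alone (0.199 to 0.219). Under arsenite 1 of the 16 effectors was called between genotypes, Scg2, which was 0.97 higher in ATF4-deficient neurons (adjusted p = 0.0178) and lost its call without wildtype arsenite replicate 3 (0.0553) or ATF4-deficient arsenite replicate 1 (0.0983) or 2 (0.0707), and with the replicate number as a block (0.114). For genotype under arsenite 0.0721% of all genes were called higher. Under vehicle Inhba was at -0.31, opposite in sign to the 8 genes above, which were taken because they were called higher. Estimates below 0 were found there for 4 of the 15 transcription factors, the lowest at -0.50, and for 2 of the 16 effectors. Of all genes 48.9% were below 0.

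**Figure D3:**
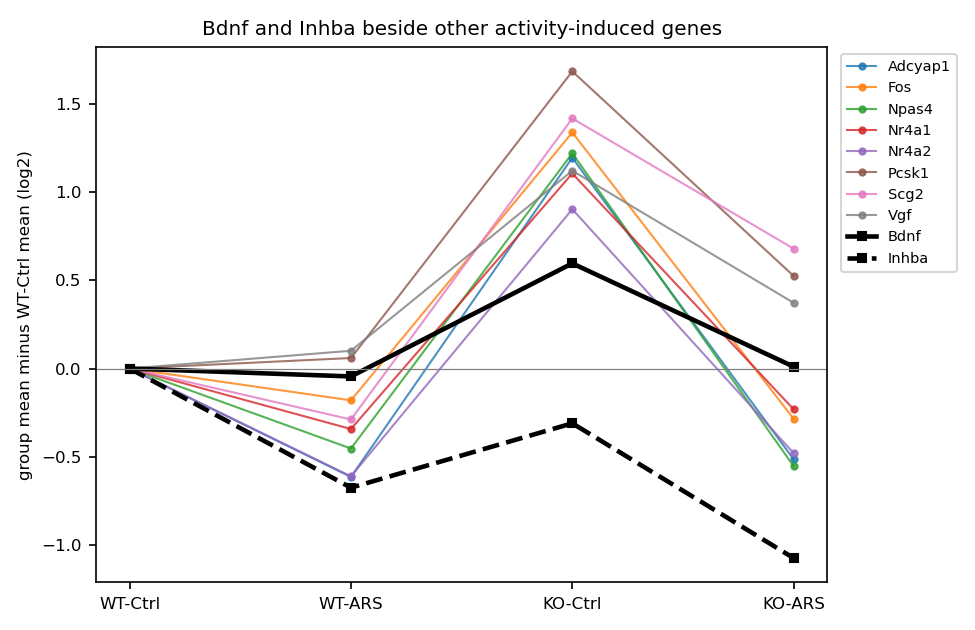
Group means of Bdnf, Inhba and the 8 activity-induced genes called higher in ATF4-deficient vehicle neurons, each as the log2 difference from its own wildtype vehicle mean (WT-Ctrl). Lines only join the points of a gene. The 8 were drawn because they were called there, Bdnf has its highest mean in the same group (KO-Ctrl), and Inhba has its highest in wildtype vehicle.

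Among receptors and partners of the 7 products, single genes were called. Of 7 measured neurotrophin, receptor and processing genes, 0 were called in any comparison, and Ntrk2, which encodes the BDNF receptor TrkB, had arsenite differences of -0.43 in wildtype (adjusted p = 0.184) and -0.49 in ATF4-deficient neurons (adjusted p = 0.157). Of 17 other genes of activin and inhibin signalling, 0 were called. Among them Fst, which encodes the activin-binding protein follistatin, was at -0.63 after arsenite in wildtype (adjusted p = 0.237). Of 9 AMPA receptor subunits and auxiliary proteins, Gria4 was called higher after arsenite in ATF4-deficient neurons (0.48, adjusted p = 0.0398). In that comparison 0.631% of all genes were called higher. The Gria4 call was lost without any 1 of the 10 arrays. It was also lost with array weights (adjusted p = 0.0665), with the replicate number as a block (0.0654) and with the compared groups alone (0.28). Of 9 Homer partners and postsynaptic proteins and 7 Arc partners, 0 were called. All 7 Arc partners, among them Camk2a and Camk2b, had negative estimates after arsenite in wildtype (median -0.31) and in ATF4-deficient vehicle neurons against wildtype (median -0.30). Of all genes 55.1% and 48.9% were negative in these comparisons, which share the wildtype vehicle arrays and are therefore not independent.

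Of 11 genes of Rheb and mTORC1 signalling, 1 was called, Eif4ebp1, which encodes the translation repressor 4E-BP1. It was lower in ATF4-deficient than in wildtype arsenite arrays (-1.92 log2, SE 0.31, adjusted p = 0.0298), where 0.271% of all genes were called lower. The Eif4ebp1 means were 7.31 ± 0.16 (SD, n = 2) against 9.23 ± 0.31 (SD, n = 4). The call was lost without wildtype arsenite replicates 2, 3 or 4 (adjusted p = 0.0737, 0.0923 and 0.0683) and without ATF4-deficient arsenite replicates 1 or 2 (0.112 and 0.244), with the replicate number as a block (0.128) and with array weights (0.0968). Of 13 genes that carry calcium signals to the nucleus, 1 was called, the calcium channel gene Cacna1d. After arsenite in ATF4-deficient neurons it was higher (0.69, adjusted p = 0.0137), where 0.631% of all genes were called higher. That call was lost without ATF4-deficient vehicle replicates 1 or 2 (0.099 and 0.0597) or arsenite replicate 2 (0.0947), and with the compared groups alone (0.255). Listed genes without a value were not analysed here.

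The genes most like each member were found by the root mean square difference over the 10 arrays, each gene centred on its mean, among 13523 genes above the dim reference. For Bdnf they were Prickle1 (0.0797 log2), Kitl (0.0807) and Gm19389 (0.0852), against a spread of 0.25 for Bdnf itself. Those of Inhba were Ssbp2 (0.121), Map11 (0.127) and Rhbdl1 (0.135), against its own 0.383. For Homer1 they were Arfgef1 (0.0981), Usp24 (0.119) and Dennd5b (0.121), against 0.326. Replicate 2 of ATF4-deficient vehicle (9.25) and arsenite (9.12) weighs heavily in that Homer1 spread. As the nearest of 13523 genes, all these are close by selection. The group means of the other 4 members span under 0.5 log2, and no likeness was computed for them.

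**Figure D4:**
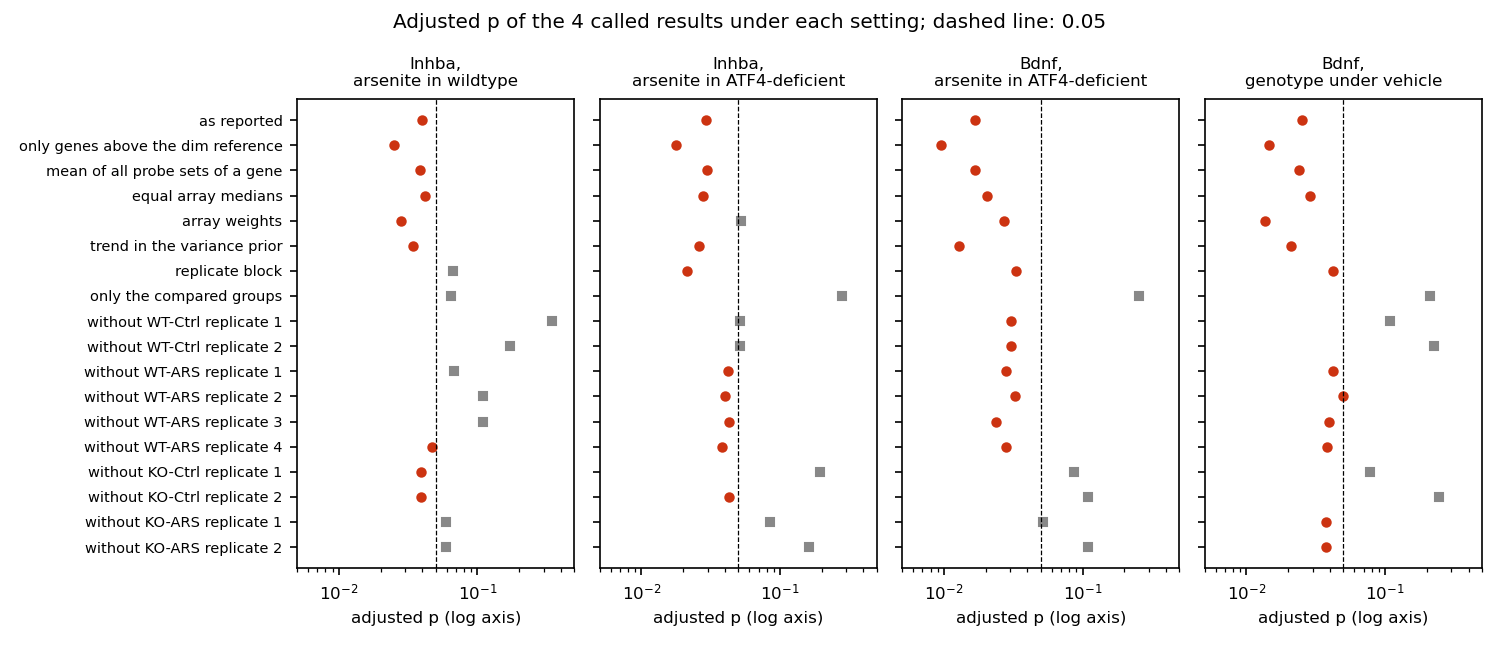
Adjusted p (log axis) of the 4 called results as reported and under 17 other settings, with red circles under 0.05 and grey squares above it. Removing an array of a compared group moves most results past the dashed line, and fitting the compared groups alone moves all 4.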

How the data were processed

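Expression was measured on 10 mouse arrays in 4 groups taken from the sample titles. The authors deposited log2 values normalised by RMA in Partek Genomics Suite 6.6, per the submitters' processing notes and the labels. RMA gives all arrays 1 distribution, which hides a shift common to most genes. Of 41345 probe sets, 23521 had 1 gene symbol, and the brightest per gene gave 22180 genes (updated through GRCm38.p6 identifiers, 23328 probe sets matched); each of the 7 genes described had 1 such probe set. For the array design, the sources used here give no build.

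A limma 3.58.1 model in R 4.3.3 with a mean for each group used all 10 arrays (6 residual degrees of freedom, prior 5.08) and tested 5 contrasts, with Benjamini-Hochberg adjustment over all genes. The fit was tested on simulated data. The genes described and the related lists (9, beside 9 of cell type markers) were chosen with earlier results of these data known, so they support nothing independently. All 7 genes are named; of a list, up to 4 called genes per contrast by size. Likeness names the 3 nearest genes for members whose group means span over 0.5 log2. Alternatives were a dim filter, averaged probe sets, equal array medians, array weights, a variance trend, a replicate block, the compared groups alone and leaving out each array. The number of arrays limits the precision.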

Additional observations from a re-analysis of the deposited data

How the results depend on the processing

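Over 17 settings each, the 4 called results for Inhba and Bdnf kept their sign; of these 68 values 42 kept the call and 26 lost it. Of the 31 uncalled results of the 7 genes, 0 became called under any setting run, and 9 changed sign under at least 1.

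Of all 22180 genes, arsenite changed 107 in wildtype and 256 in ATF4-deficient neurons, the genotypes differed in 96 with vehicle and 76 with arsenite, and the interaction gave 0. With array weights the first 4 were 186, 135, 228 and 40. With only genes above the dim reference the count was 162 for arsenite in wildtype and 193 for genotype under vehicle. With only the compared groups the first 4 counts were 11, 0, 0 and 41, and of the 7 genes 0 were called in each, in place of 1, 2, 1 and 0. Array weights left 1 of the 7 called for arsenite in ATF4-deficient neurons. Leaving out each array in turn gave 0 to 75, 50 to 200, 0 to 99, 1 to 64 and 0 to 0 called genes in the order above, and 0 to 1, 0 to 2, 0 to 1, 0 to 0 and 0 to 0 of the 7. Where that left a group with 1 array, it was assumed to vary like the others.

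The replicate numbers share no stated source, and deviations from group means of same-numbered arrays correlated at -0.0555 to 0.403. With the replicate block the counts were 17 for arsenite in wildtype, 165 for genotype under vehicle and 4 for genotype under arsenite, and of the 7 genes 0 were called for arsenite in wildtype (Inhba, adjusted p = 0.0662). Replicate numbers 3 and 4 occur only in wildtype arsenite, so the block leaves those arrays out of every contrast. Wildtype arsenite then rests on replicates 1 and 2 alone, which bears on the counts that involve this group. What else moved the counts was not tested.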

Other observations

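Exact repeats of a value across arrays occurred in 12567 of 41345 probe sets (30.4%), and in 94.1% of these every repeated value lay at the middle of the 10. In 2093 probe sets (5.06%) both arrays of a group of 2 were equal. Of the 7 genes, Bdnf held 6.95576 on wildtype vehicle replicate 1, wildtype arsenite replicate 3 and ATF4-deficient arsenite replicate 1. Homer1 held 8.6158 on wildtype vehicle replicate 2, wildtype arsenite replicate 2 and ATF4-deficient vehicle replicate 1. Nptx2 held 7.53227 on wildtype arsenite replicate 2 and both ATF4-deficient arsenite arrays. The repeats of Bdnf and Homer1 lie in different groups. Where both arrays of a group of 2 are equal, as for Nptx2, the SD of 0 understates their error. The effect of repeats on the calls was not tested.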
